A study of Mus musculus with 12 samples.

Results

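The guanylate-binding proteins (GBPs) are large GTPases that macrophages make in quantity after interferon. Interferon-γ acts through its receptor, the kinases JAK1 and JAK2 and the factor IRF1 to switch their genes on. The proteins assemble on the membranes of vacuoles that hold bacteria or parasites and on free bacterial lipopolysaccharide (LPS), and they help caspase-11 and the inflammasomes respond to them. In the mouse the genes lie in a cluster on chromosome 3 and another on chromosome 5. Described here are the 10 genes named Gbp2 to Gbp11, out of 22243 genes with values, chosen by symbol. The choice of the family was made with earlier results of these data known. They are represented by 15 principal transcripts of 28808 (the transcripts that the APPRIS annotation marks as the main ones of a gene), and values in TPM (a level per transcript length, scaled to the same total in every library) were summed per gene. Gbp2b, the neighbour of Gbp2 that also goes by the name Gbp1, was not among the 10 and is given beside them where it helps.

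RNA was from bone marrow-derived macrophages (BM-Mɸs) of C57Bl/6 mice, grown in M-CSF and M1-activated with 100 U/mL interferon-γ for 16 h and then 100 ng/mL LPS for 6 h. There were 6 cultures from ErbB4myeKO mice, which carry floxed ErbB4 and a Cre driven by the myeloid LysM promoter, and 6 from ErbB4FF mice, which carry the floxed alleles without Cre. Each of 6 litters gave 1 mouse of each genotype, and the label for batch followed the litter, so that the batch and the litter cannot be told apart while the genotypes were compared within both. All 12 libraries were from activated cells, so induction by interferon or LPS was not measured, and the comparison asks whether GBP transcripts differ when the myeloid lineage has lost the receptor ErbB4.

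Of 8 macrophage markers, 0 passed the adjusted threshold for genotype and 1 was at an unadjusted p under 0.05 (limma). By mean, 4 were higher and 4 lower in ErbB4myeKO. Adgre1, Cd68 and Csf1r, with adjusted p-values of 0.963, 0.770 and 0.864 (limma), were not marked. The macrophage gene Fcgr1 was marked as lower, with a log2 ratio of -0.86 and a 95% interval of -1.44 to -0.27. The summed median of the 8 markers was 10084 TPM in ErbB4myeKO and 13939 TPM in ErbB4FF libraries, and the ranges overlapped (8417 to 12521 and 7179 to 15964 TPM). The targeted gene itself was near the lower end of detection. Erbb4 was 0.583 ± 0.242 TPM in ErbB4myeKO libraries and 0.450 ± 0.132 TPM in ErbB4FF libraries (SD, n = 6 each) and was higher in the ErbB4myeKO littermate in 4 of 6 litters (exact permutation p = 0.250), so these values did not show the deletion and the genotypes below are those of the labels. Markers that define T and NK cells, B cells and erythroid cells summed to at most 3.32, 2.12 and 0.981 TPM per library, and the neutrophil genes Ly6g, Elane, Mpo and Cxcr2 were under 1 TPM in every library. The summed neutrophil list of 10 genes ran from 41.3 to 375 TPM in ErbB4myeKO and from 42.5 to 186 TPM in ErbB4FF libraries. The dendritic list ran from 44.4 to 122 TPM and from 30.4 to 93.8 TPM, with 3 of 3 tested genes higher in ErbB4myeKO by mean, and the stromal list from 9.28 to 103 TPM and from 15.9 to 97.9 TPM, with 5 of 5 tested genes higher by mean. The part of these lists in the results was not tested. Of 29 genes tested in 9 marker lists, 0 passed the adjusted threshold for genotype (limma) and 5 (17.2%) were at an unadjusted p under 0.05, against 8.21% of all genes tested. In bulk RNA, fewer cells of a type and less RNA per cell cannot be told apart.

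Positions are from GENCODE M21 (GRCm38). On the forward strand of chromosome 3 lie Gbp5 (142493978 to 142522344), Gbp7 (142530342 to 142550149), Gbp3 (142560026 to 142573209), Gbp2b (142594847 to 142619179) and Gbp2 (142620602 to 142638008). On the reverse strand of chromosome 5 lie Gbp8 (105014150 to 105139540), Gbp9 (105077630 to 105139539) and Gbp4 (105115767 to 105139586), which overlap and begin close together, followed by Gbp10 (105215699 to 105239533), Gbp6 (105270702 to 105293698) and Gbp11 (105323042 to 105346472). Gbp11 is annotated as a polymorphic pseudogene and the other 9 as protein coding.

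Sequence before the RefSeq starts of the genes was read because the cells had been treated with interferon-γ. RefSeq (GRCm38.p6) promoter windows were at hand for 4 of the 10 genes, all of chromosome 3, in 5 windows, and for Gbp2b. Gbp4, Gbp6, Gbp8, Gbp9, Gbp10 and Gbp11 had none. The 250 bases before each start were searched on both strands for TTTC followed by any 2 bases and another TTTC, the core of the element bound by interferon regulatory factors. Every gene with a window had this motif in a window, and the second window of Gbp3 was the only one without it. Over the same 250 bases, 2.98% of 32851 RefSeq windows held it. A match of letters does not show that a factor was bound. The stretches that hold the matches are given 5′ to 3′ on the forward strand, with the matches in capitals. They are for Gbp5 chr3:142496754-142496793, for Gbp7 chr3:142530268-142530307, for Gbp3 chr3:142559984-142560029, for Gbp2b chr3:142594695-142594734 and for Gbp2 chr3:142620589-142620628.
Gbp5: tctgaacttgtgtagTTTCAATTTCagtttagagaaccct
Gbp7: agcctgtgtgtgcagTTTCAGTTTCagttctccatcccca
Gbp3: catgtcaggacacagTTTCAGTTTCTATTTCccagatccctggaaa
Gbp2b: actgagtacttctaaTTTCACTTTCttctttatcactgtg
Gbp2: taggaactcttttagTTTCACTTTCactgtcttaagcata
In Gbp3 a pair of matches overlap, and its second RefSeq window, further downstream, did not hold the motif. Of the 46 printed Gbp3 bases, 4 lie in a GENCODE exon. For Gbp2, 27 of the 40 printed bases lie in an exon of a GENCODE transcript that starts further upstream than the RefSeq start. The RefSeq start of Gbp5 likewise lies within the gene as GENCODE gives it, so the Gbp5 stretch is inside that gene, outside its annotated exons.

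The coding ends were compared because some GBPs carry a lipid (prenyl) anchor on a cysteine placed 4 residues from the end, by which the protein holds on to membranes. The last 30 coding bases before the stop codon are given, with the last 4 codons in capitals, for the genes with such a cysteine codon and, for contrast, for Gbp6 and Gbp10. The stretches are chr3:142637461-142637490 (Gbp2), chr3:142521130-142521159 (Gbp5) and chr3:142618173-142618202 (Gbp2b) on the forward strand, and chr5:105273105-105273134 (Gbp6) and chr5:105217308-105217337 (Gbp10) on the reverse strand.
Gbp2 end: aacaaatcgtctgggaagTGCACTATACTC
Gbp5 end: cgtagacatcatcatgacTGTGTTATAAGC
Gbp2b end: atgcctccacctcgatcaTGCACCATACTT
Gbp6 end: cattaccttgtccgttatCTAAAGCATTTA
Gbp10 end: cattaccttgtccgttatCTAAAGCATTTA
Gbp2 and Gbp5 were the only members with a cysteine codon (TGC or TGT) as the first of the last 4 codons, as it also was in Gbp2b, and they were the 2 most abundant members. The end of Gbp6 was identical to that of Gbp10, which bears on how far their reads can be told apart.

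How much of a transcript is its own sets how well pseudoalignment can assign reads to it. Of the 31-base words of the Gbp6 transcript, 94.4% occurred in transcripts of another gene and none were unique to it. The Gbp10 transcript shared 88.8% of its words with other genes, among which Gbp6 held 78.9% of its words, and 9.92% were unique to it. Both also share sequence with Gm43302, an annotated gene that spans them (mean 4.44 TPM in ErbB4myeKO and 8.53 TPM in ErbB4FF libraries, lower in 5 of 6 litters with a log2 ratio of -1.38 ± 1.35, exact permutation p = 0.0625, among the genes marked at an unadjusted p under 0.05 and limma adjusted p = 0.603). Gbp6 and Gbp10 are therefore reported as uncertain on their own, as are Gbp4, Gbp8, Gbp9 and Gbp11, for which between 21.2% and 51.2% of words occurred in another gene. The Gbp2, Gbp3 and Gbp5 transcripts shared between 2.05% and 7.2% with other genes, and the most abundant transcript of Gbp7 shared 14.8%. Within its own gene, the Gbp5 transcript shared 91.2% of its words with other transcripts, and 7.21% were unique to it. For Gbp2 these shares were 32.0% and 65.4%. Transcripts other than the principal ones have no values here. The ranks, shares and order of levels below are therefore those of principal transcripts and can miss unequal parts of each gene.

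**Figure D1:**
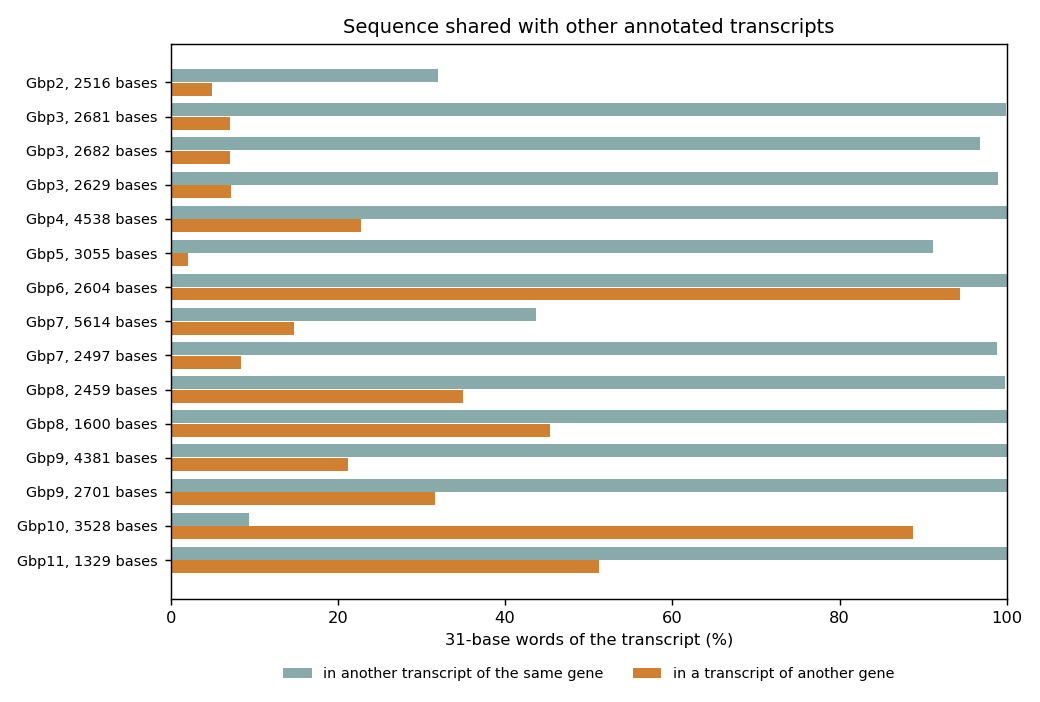
Percentage of the 31-base words of each principal transcript found again in GENCODE M21, either in a different transcript of its own gene (grey-green) or in a transcript of another gene (orange). Gbp6 (94.4%) and Gbp10 (88.8%) share most of their words with other genes, whereas Gbp2, Gbp3 and Gbp5 share between 2.05% and 7.2%.

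All 10 genes together held between 0.301% and 0.533% of the TPM of a library. Gbp2, which collects on parasite vacuoles, was the most abundant member and had rank 35 by mean TPM among all genes. It made up 49.5% to 72.2% of the summed GBP TPM in ErbB4FF libraries and 51.3% to 71.9% in ErbB4myeKO libraries. Gbp5, a partner of the NLRP3 inflammasome, had rank 124, Gbp3 rank 242 and Gbp6 rank 328. The remaining members had ErbB4FF medians of 94.7 TPM or less, and Gbp11 had rank 8711 of 22243.

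The order of the median levels was the same in both genotypes, namely Gbp2, Gbp5, Gbp3, Gbp6, Gbp9, Gbp7, Gbp4, Gbp10, Gbp8 and Gbp11. The pairs below were taken from the medians of the same ErbB4FF libraries, so their p-values describe how steadily the order held and are not an independent test of it. Of the 9 neighbouring pairs in the ErbB4FF libraries, 7 stood in this order in 6 of 6 libraries (exact two-sided permutation p = 0.0312 each, the smallest that 6 libraries allow, and 0.0402 after adjustment over the 9 pairs). The step from Gbp2 to Gbp5 was 1.63 ± 0.47 on the log2 scale of TPM + 0.5, and that from Gbp6 to Gbp9 was 1.66 ± 0.49 (SD, n = 6). Gbp7 and Gbp4 (0.64 ± 0.75, in order in 5 of 6 libraries, exact permutation p = 0.0938) and Gbp4 and Gbp10 (0.53 ± 0.71, in order in 4 of 6, exact permutation p = 0.188) did not differ beyond their spread. The step from Gbp3 to Gbp6, 0.75 ± 0.80, had 1 litter far from the rest, as described further on. In ErbB4myeKO libraries Gbp8 lay above Gbp11 in 5 of 6 libraries (exact permutation p = 0.0625), because Gbp11 reached 9.28 TPM in litter 3, so that 6 of 9 pairs held there. When only the highest transcript of each gene was used, 5 of 9 pairs held in ErbB4FF libraries. Gbp3 then lay above Gbp6 in 1 of 6 libraries and Gbp9 above Gbp7 in 0 of 6, so these steps rest on summing the transcripts of Gbp3 and Gbp9.

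**Figure D2:**
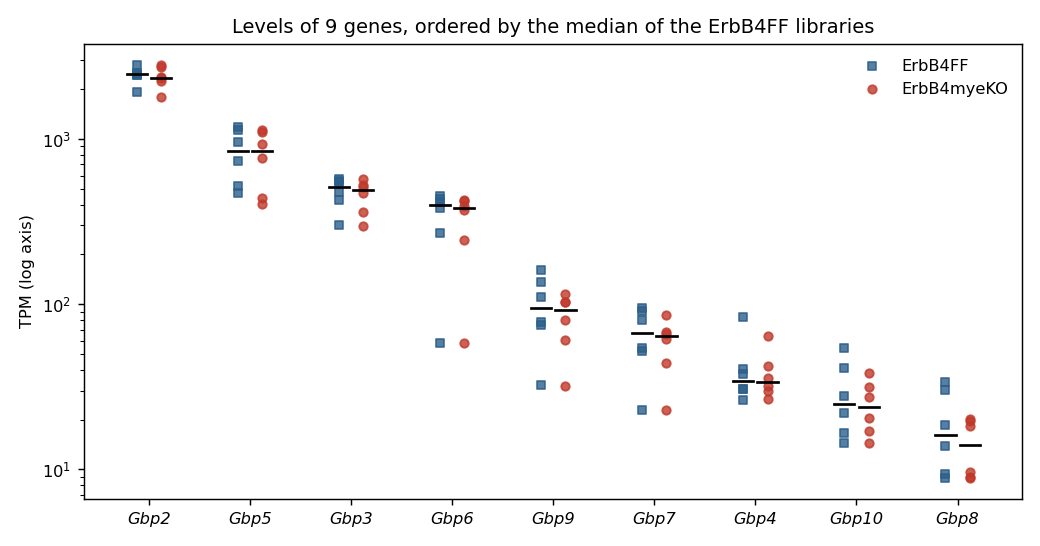
TPM (log axis) of 9 GBP genes in 6 ErbB4FF (squares) and 6 ErbB4myeKO libraries (circles), with the median as a black line, ordered by the ErbB4FF median. Gbp11 is left out because 7 of its 12 values are 0. Gbp2 lies at or above 1799 TPM throughout and the genotypes overlap for every gene.

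The genotypes were compared gene by gene. None of the 10 genes passed an adjusted p of 0.05, as was the case for all 8780 genes tested (0% called, limma with litter as a block). At an unadjusted p under 0.05 limma marked 721 genes, 8.21% of those tested, with 3.83% marked as higher and 4.38% as lower in ErbB4myeKO. Among the 10 GBP genes 1, Gbp8, was marked, as lower. The mean log2 ratio of ErbB4myeKO to ErbB4FF littermates was below 0 for 9 of 10 genes, with a median of -0.08, whereas 50.2% of all genes tested were below 0 and their median was -0.00. Of the GBP genes, 6 were lower in ErbB4myeKO in at least 5 of 6 litters, as were 14.3% of all genes, 8 were lower in at least 4, as were 35.9%, and 0 were lower in all 6, as were 2.31% of all genes. The members share libraries, and several share sequence, so they are not independent of each other. The groups of 6 overlapped for every member, and 0.0456% of all genes tested had groups without overlap.

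Gbp2 had a lowest, median and highest value of 1799, 2352 and 2782 TPM in ErbB4myeKO libraries and of 1931, 2460 and 2813 TPM in ErbB4FF libraries. The ranges cover almost the same interval, with litter 4 the highest and litter 6 the lowest in both. Its log2 ratio was -0.04 ± 0.10 (SD, n = 6 litters, limma adjusted p = 0.832), with a 95% interval of -0.18 to 0.09. It was -0.08 without litter 3 and -0.03 without litter 5. The intervals of Gbp2, Gbp5 and Gbp6 were the narrowest of the 10.

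Gbp5 ran from 405 TPM over a median of 847 to 1129 TPM in ErbB4myeKO and from 467 over 849 to 1181 TPM in ErbB4FF libraries. Litters 2 and 4 were high and litters 5 and 6 low in both genotypes, so the groups overlapped while the littermates stayed close. The log2 ratio was -0.09 ± 0.11 (exact permutation p = 0.125, limma adjusted p = 0.663, interval -0.22 to 0.05), and it was below 0 in 5 of 6 litters.

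Gbp3, a further gene of the chromosome 3 cluster, ran from 297 over 491 to 571 TPM in ErbB4myeKO and from 300.3 over 514 to 574 TPM in ErbB4FF libraries. Its log2 ratio was -0.08 ± 0.15 (exact permutation p = 0.281, limma adjusted p = 0.725). It was -0.04 without litter 2 and -0.12 without litter 3. The groups overlapped nearly from end to end. Gbp3 has 3 principal transcripts, of which the 2 abundant ones had medians of 232 and 235 TPM in ErbB4myeKO libraries and the other one a median of 20.5 TPM. Since 96.8% to 99.9% of the words of each occur in another Gbp3 transcript, the split between them is uncertain and the sum is the safer value.

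Gbp7, which links GBPs to the NADPH oxidase, ran from 22.9 over 63.7 to 85.9 TPM in ErbB4myeKO and from 22.8 over 67.2 to 94.97 TPM in ErbB4FF libraries. The low value was litter 5 in both genotypes. Its log2 ratio of -0.15 ± 0.24 (exact permutation p = 0.188, limma adjusted p = 0.654) came largely from litter 2, where it was -0.53. It was -0.08 without litter 2 and -0.22 without litter 3. Its transcript of 5614 bases carried nearly all of the level, with the other one at medians of 1.32 TPM in ErbB4myeKO and 0.765 TPM in ErbB4FF libraries.

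On chromosome 5, Gbp6 ran from 58.5 over 382 to 429 TPM in ErbB4myeKO and from 58.1 over 399 to 448 TPM in ErbB4FF libraries. Litters 1 to 4 lay between 372 and 448 TPM, litter 6 had 243 and 269.5 TPM and litter 5 was the lowest, and the groups overlapped. The log2 ratio was -0.06 ± 0.12 (exact permutation p = 0.219, limma adjusted p = 0.763), from -0.03 without litter 2 to -0.10 without litter 3. When Gbp6, Gbp10 and Gm43302 were summed, the sum was 348 ± 146 TPM in ErbB4myeKO and 372 ± 162 TPM in ErbB4FF libraries. The log2 ratio of the sum was -0.07 ± 0.15 (exact permutation p = 0.344, limma adjusted p = 0.756). Summing avoids dividing reads among the principal transcripts of these genes only. Within Gbp6, 100% of the words of its principal transcript also occur in other transcripts, which have no values here. Words are also shared with Gbp4, Gbp8, Gbp9 and Gbp11, which are not in the sum.

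Gbp9 ran from 32.1 over 91.6 to 115 TPM in ErbB4myeKO and from 32.5 over 94.7 to 161 TPM in ErbB4FF libraries. The ErbB4FF library of litter 2 was the high one, and its littermate had 104 TPM. The log2 ratio was -0.21 ± 0.24, below 0 in 5 of 6 litters (exact permutation p = 0.0938, limma adjusted p = 0.603, interval -0.43 to 0.01). It was -0.13 without litter 2 and -0.26 without litter 3.

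Gbp8 ran from 8.87 over 13.96 to 20.2 TPM in ErbB4myeKO and from 8.84 over 16.15 to 33.7 TPM in ErbB4FF libraries. The 2 highest values were in ErbB4FF libraries, of litters 2 and 4, and the low ends coincided. The log2 ratio was -0.31 ± 0.33, with 5 of 6 litters below 0 (exact permutation p = 0.0625, limma p = 0.0415 before and 0.603 after adjustment over all genes). The unadjusted mark was lost without litter 2, 4 or 6 (log2 ratios of -0.23, -0.25 and -0.27), without the litter block, with a Y-linked covariate, with limma without trend and with the highest transcript alone (log2 ratio -1.04). Its ratios were -0.72 in litter 2 and 0.01 in litter 5. In the ErbB4myeKO library of litter 3 the longer Gbp8 transcript was listed at 0 and the shorter one at 9.04 TPM, although the summed level of the littermates was close, at 9.04 and 9.31 TPM.

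Gbp10 ran from 14.4 over 23.9 to 38.5 TPM in ErbB4myeKO and from 14.5 over 24.8 to 54.2 TPM in ErbB4FF libraries. Its log2 ratio of -0.16 ± 0.33 (exact permutation p = 0.344, limma adjusted p = 0.708) ranged from -0.77 in litter 2 to 0.22 in litter 5. The mean ratio was -0.035 without litter 2 and -0.23 without litter 5. The summed value with Gbp6 and Gm43302 given above is less exposed to their shared sequence.

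Gbp4 ran from 26.7 over 33.9 to 63.9 TPM in ErbB4myeKO and from 26.2 over 34.3 to 83.2 TPM in ErbB4FF libraries. Its littermates differed more than those of the other members except Gbp11, the gene being high in 1 animal each of litter 3 (ErbB4myeKO) and litter 4 (ErbB4FF), which gave ratios of 0.65 and -1.21. The mean ratio was -0.06 ± 0.62 (exact permutation p = 0.938, limma adjusted p = 0.943), and without litter 4 it was 0.18.

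Gbp11 was 9.28 and 1.76 TPM in the ErbB4myeKO libraries of litters 3 and 6 and 0.817 and 0.678 TPM in the ErbB4FF libraries of litters 1 and 6. It was listed at 0 in 7 libraries and at 0.00660 TPM in the remaining one. It passed the filter of a mean of 1 TPM through the ErbB4myeKO library of litter 3 alone, and its log2 ratio of 0.64 ± 1.94 (limma adjusted p = 0.779) therefore rests on that library. That library also had the highest ErbB4myeKO value of Gbp4, and 26.6% of the words of the Gbp11 transcript occur in Gbp4 transcripts.

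**Figure D3:**
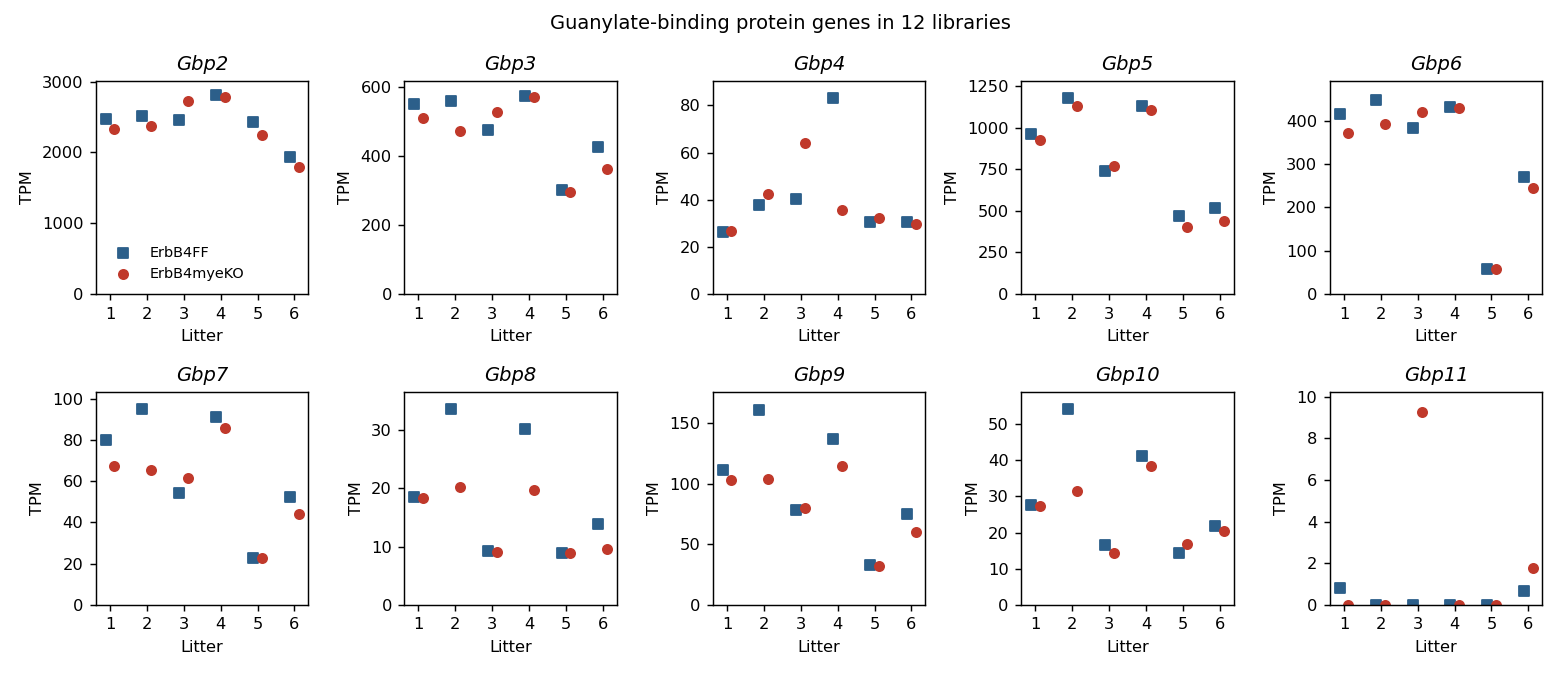
TPM of the 10 GBP genes in each litter (1 to 6), with ErbB4FF as squares and ErbB4myeKO as circles on linear axes that start at 0. Littermates lie close for Gbp2, Gbp3, Gbp5 and Gbp6, and both libraries of litter 5 are low for Gbp6 (58.5 and 58.1 TPM), Gbp7 and Gbp9.

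The litter, not the genotype, carried most of the spread of these genes. Litter held 88.9% to 99.6% of the sum of squares of log2 values for 8 members, against 45.5% of the degrees of freedom, and genotype held 0.0869% to 5.71%. Without litter 5 the litter share of these 8 was 81.5% to 98.6% and the genotype share 0.430% to 9.65%, the highest for Gbp9. Gbp4 (64.7% litter) and Gbp11 (46.1% litter) were the exceptions. With all litters, the litter share was 94.9% for Csf1r, 78.6% for Adgre1 and 63.1% for Cd68, macrophage genes outside the family. The share over all genes was not computed, so a high litter share cannot be called particular to the GBP genes. The range across litters differed between genes. The mean of the littermates varied 1.5-fold from the lowest to the highest litter for Gbp2, 2.65-fold for Gbp5 and 7.37-fold for Gbp6. Without litter 5 the Gbp6 range was 1.68-fold, below the 2.41-fold of Gbp5. The highest litter was 2 or 4 for 9 members, and the lowest was 5 for Gbp3, Gbp5, Gbp6, Gbp7, Gbp8 and Gbp9.

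The log2 ratios of the members also differed by litter. Their median was -0.10, -0.22, 0.14, -0.06, 0.00 and -0.18 in litters 1 to 6, and 9, 8, 2, 9, 4 and 9 of the 10 genes were lower in the ErbB4myeKO littermate. In litter 3 most members were thus higher in the ErbB4myeKO animal. Over all genes the median ratio lay between -0.02 and 0.02 in every litter.

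**Figure D4:**
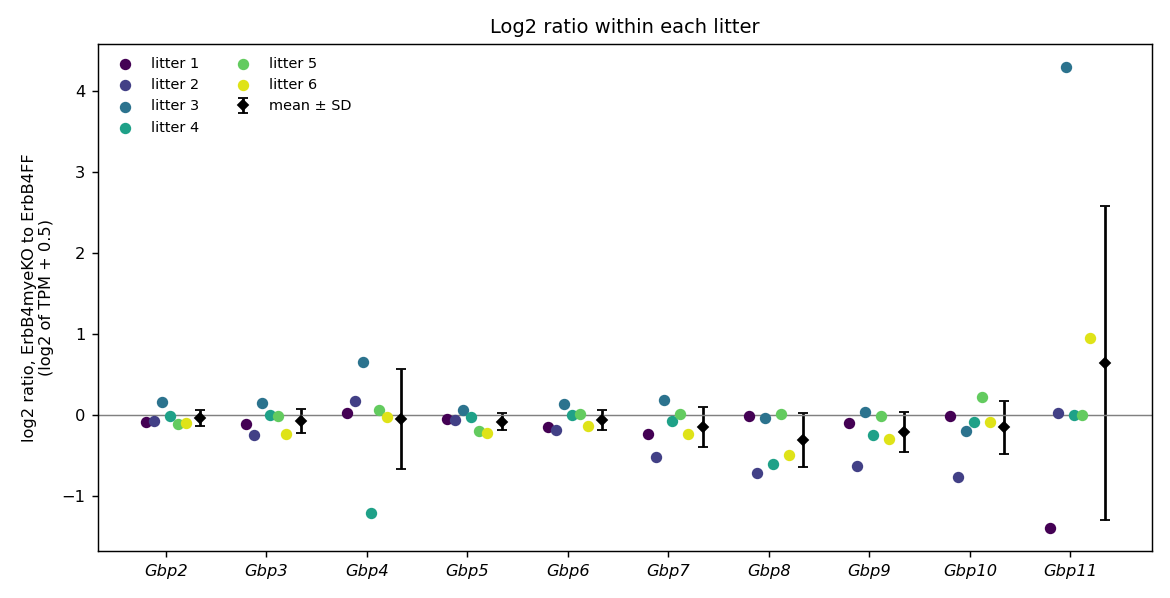
Log2 ratio of ErbB4myeKO to ErbB4FF littermates (log2 of TPM + 0.5) for each of 6 litters (coloured points) and 10 GBP genes, with the mean ± SD over litters as black diamonds. The means of 9 genes lie below 0, from -0.04 to -0.31, and that of Gbp11 is set by litter 3 at 4.29.

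Litter 5 stood apart in both genotypes. Against the median of the other 10 libraries, Gbp6 was lower by a log2 difference of -2.77 in the ErbB4myeKO and -2.78 in the ErbB4FF library. The same differences were -1.67 and -1.66 for Gbp9, -1.52 and -1.52 for Gbp7, -1.22 and -1.01 for Gbp5, and -1.01 and -1.02 for Gbp8. Gbp2 (-0.14 and -0.02) and Gbp4 (-0.19 and -0.25) were near the other litters, whereas Gbp2b was higher by 0.82 and 0.85. Gbp3, Gbp6, Gbp7, Gbp8 and Gbp9 lay below all 10 other libraries in both animals. The sum of Gbp6, Gbp10 and Gm43302 was 88.7 and 82.8 TPM in litter 5 and 265 to 519 TPM in the other libraries and was thus low as well. The limit given above on reads shared beyond these genes and their principal transcripts applies to this sum too.

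Transcripts of all lengths were compared because litter 5 also differed beyond the GBP genes. Principal transcripts held 71.4% of the TPM in its ErbB4myeKO and 74.7% in its ErbB4FF library, against 59.0% to 64.9% in the other 10 libraries. The median difference in its ErbB4myeKO and ErbB4FF libraries was 0.86 and 0.94 for transcripts under 800 bases, 0.22 and 0.22 from 1500 to 2500 bases, -0.16 and -0.16 from 2500 to 4000 bases and -0.66 and -0.68 from 4000 bases upwards. Litter 6 had a smaller difference of the same kind that was unequal between littermates, at 0.16 and 0.34 under 800 bases and -0.15 and -0.23 from 4000 bases. The GBP transcripts have 1329 to 5614 bases. Gbp6, whose transcript has 2604 bases, lay far below the median of its length bin, and Gbp4, whose transcript has 4538 bases, lay above that of its own. The summed neutrophil list was 215 and 186 TPM in the ErbB4myeKO and ErbB4FF libraries of litter 5, against medians of 63.2 and 66.6 TPM over the 6 libraries of each genotype, although the highest ErbB4myeKO value, 375 TPM, was in litter 6. The part of the length pattern and of this list in the GBP values was not tested. Genotype ratios within litter 5 compare 2 libraries with the same pattern. Leaving out litter 5 left the median ratio of the members at -0.08. Then 0 members passed the adjusted threshold and 2 were at an unadjusted p under 0.05 (limma), against 1 with all litters. Leaving out litter 6, whose libraries differed in this pattern, left the median ratio at -0.06, with 0 members at either level. The unadjusted count was also 0 without litter 2 and without litter 4.

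**Figure D5:**
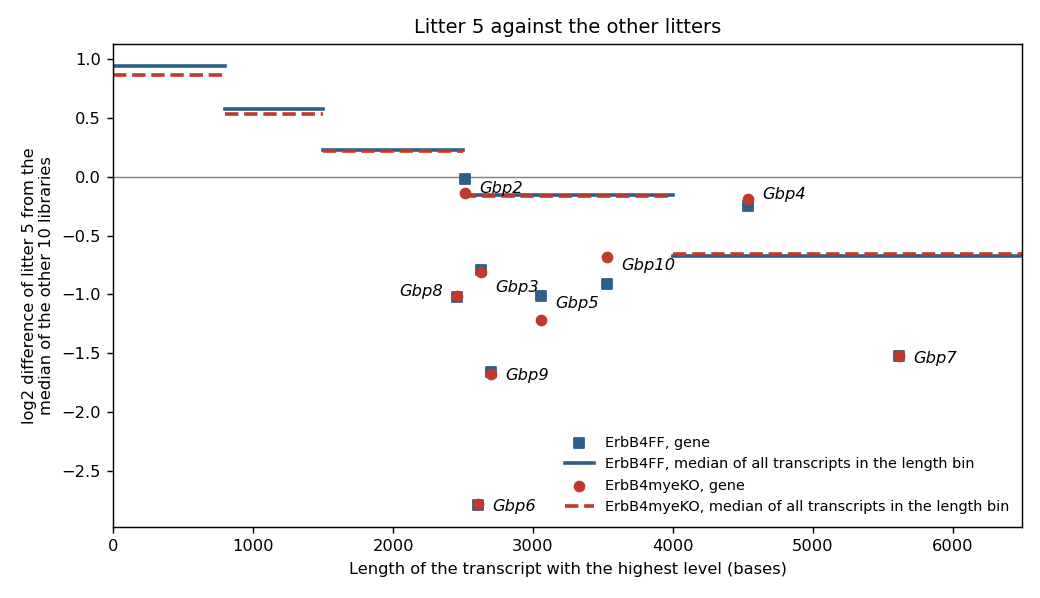
Log2 difference of each litter 5 library from the median of the other 10 libraries, plotted against transcript length in bases for 9 GBP genes (squares ErbB4FF, circles ErbB4myeKO), with horizontal lines for the median of all transcripts in each length bin. Gbp6 (-2.77 and -2.78) lies furthest below the lines, and Gbp2 and Gbp4 lie near 0.

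The genes that act with the GBPs were examined as lists. In none of the 6 lists did a gene pass the adjusted threshold (limma, 0% called over all genes). Of 17 genes of interferon signalling upstream of the GBPs, 8 were higher and 9 lower (median -0.01), and 1 was marked as higher and 3 as lower at an unadjusted p under 0.05, where 3.83% and 4.38% of all genes were. Among these, Ifngr2, a chain of the interferon-γ receptor, ranged from 70.7 to 114 TPM in ErbB4myeKO and from 88.1 to 132 TPM in ErbB4FF libraries. The ranges overlapped, yet the ErbB4myeKO littermate was lower in 6 of 6 litters (log2 ratio -0.20 ± 0.10, exact permutation p = 0.0312, limma adjusted p = 0.603), as were 2.31% of all genes. Irf1 (-0.05, limma adjusted p = 0.819), a factor that acts directly on GBP genes, and Irf8 (0.02, limma adjusted p = 0.959) did not pass. Stat2 was -0.19 ± 0.19 and Tyk2, at 0 to 27.3 TPM in ErbB4myeKO libraries, 1.03 ± 1.13.

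Of the other interferon-inducible GTPases, 10 of 12 listed genes could be tested, since Mx2 was listed at 0 and another was not matched by symbol. The median ratio was -0.18, with 2 genes higher and 8 lower (50.2% of all genes were lower) and 1, Ifi47, marked as lower at an unadjusted p under 0.05 (-0.20 ± 0.16, exact permutation p = 0.0625, limma adjusted p = 0.603), as were 4.38% of all genes. Gbp2b ran from 17.3 to 85.7 TPM in ErbB4myeKO and from 20.1 to 127 TPM in ErbB4FF libraries. Its ratio of -0.52 ± 0.72 was below 0 in 5 of 6 litters (exact permutation p = 0.0938, limma adjusted p = 0.603), and litter 2, at -1.89, contributed most. The ratio was -0.24 without litter 2 and -0.63 without litter 3. Mx1 was -0.33 ± 0.42. Irgm1 (0.02) and Iigp1 (0.01), GTPases that work on the same vacuoles, had ratios near 0.

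The 9 genes for caspases and inflammasomes had a median of -0.13, with 4 higher and 5 lower and 0 at an unadjusted p under 0.05. The inflammasome adaptor Pycard was -0.38 ± 0.45, the pore-forming Gsdmd -0.30 ± 0.39 and the sensor Nlrc4 0.15 ± 0.13. Casp4, the gene for caspase-11, was -0.13 and Nlrp3 0.11, neither past the threshold (limma adjusted p = 0.730 and 0.702). Of 13 genes that mark vacuoles for GBPs, 6 were higher and 7 lower (median -0.02). Sqstm1, the autophagy adaptor p62, ranged from 506 to 1386 TPM in ErbB4myeKO and from 398 to 1338 TPM in ErbB4FF libraries. The ranges overlapped, and it was higher in the ErbB4myeKO littermate in 6 of 6 litters (0.29 ± 0.21, exact permutation p = 0.0312, limma adjusted p = 0.603), as were 2.51% of all genes. Traf6 was 0.18 ± 0.16 and Trim21 -0.14 ± 0.20. The 3 genes of prenylation that could be tested had a median of 0.05, and were 0.83 ± 1.53 for Icmt, -0.39 ± 2.15 for Rce1 and 0.05 ± 0.40 for Fnta. The 5 oxidase genes had a median of -0.01, and Cybb, the catalytic subunit, was 0.11 ± 0.12, Ncf4 -0.07 ± 0.17 and Cyba -0.07 ± 0.26.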

How the data were processed

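The authors pseudoaligned single-end reads of 75 bases with kallisto to a mouse mm10 transcriptome (version and release not given in the sources used here), and they deposited TPM for APPRIS principal transcripts. These hold 59.0% to 74.7% of the TPM of a library. The study gives an approximate sequencing depth for its samples, but TPM carry no depth, so the reads behind each library's values are not known here and precision rests on the spread between litters. Columns of the authors' own sleuth comparison (p-values, q-values and related statistics) were not used.

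Repeated lines for a transcript (405) were dropped and TPM summed per gene. A pseudocount of 0.5 was used before taking log2, and 8780 genes averaging 1 TPM or more were kept. The model was limma 3.58.1 (R 4.3.3), with an eBayes trend, genotype as the effect and litter as the block. P-values were adjusted by Benjamini-Hochberg over all genes tested, with a threshold of 0.05. Log2 ratios are on the log2(TPM + 0.5) scale, which understates the change of low genes. For single genes a two-sided exact permutation test exchanged the genotypes of littermates in all 64 ways, so that p cannot fall below 0.0312. All scripts were tested on simulated data where they fit across genes.

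Groups and litters are from the labels. Littermates come from the same litter by the labels, and their log2 values, centred on group means, correlated at 0.273 to 0.774 in the 6 litters (0.0955 to 0.762 when centred on gene means). Each library is a culture of a separate mouse. Sex is not on the labels. A Y-linked score from 4 genes was tried as a covariate.

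Shared sequence was counted as 31-base words in GENCODE M21 transcripts. Promoter windows are RefSeq GRCm38.p6. The members and gene lists were chosen with earlier results of these data known. Named in full are all 10 members, Gbp2b, the 3 genes of each list with the smallest p, and the 5 genes most like the members. Gm43302, Irf1, Irf8, Irgm1, Iigp1, Casp4 and Nlrp3 were added after their values were seen. Alternatives were another pseudocount, filter, scaling, transcript choice and model, and leaving out each litter.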

Additional observations from a re-analysis of the deposited data

Results flagged for a closer look

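Within groups of 6 libraries, 3 values stood apart from the rest of their group by more than a gap test (Dixon's) on log2(TPM + 0.5) allows. They were found among 22 groups tested, and chance alone marks about 1 in 20. Gbp6 was 58.5 TPM in the ErbB4myeKO library of litter 5 and 58.1 TPM in the ErbB4FF library of litter 5, so both animals of that litter were low. Gbp4 was 83.2 TPM in the ErbB4FF library of litter 4, where its littermate had 35.6 TPM. On the TPM scale itself, an alternative chosen after seeing the data, 2 values stood apart, the same value of Gbp4 and the 9.28 TPM of Gbp11 in the ErbB4myeKO library of litter 3, while those of Gbp6 did not.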

How the results depend on the processing

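No GBP gene passed the adjusted threshold under any of 9 alternatives or with any litter left out, and the median log2 ratio of the members stayed between -0.15 and -0.06. Over all genes, leaving out a litter gave 0 to 1 genes past the adjusted threshold, the single one, Igkv1-88, without litter 3 (limma adjusted p = 0.049). Without the litter block, which the paired design calls for, limma marked 75 genes at an unadjusted p under 0.05 in place of 721, and 0 GBP genes in place of 1. None of the genes of the 6 lists or of the 29 markers was marked at that level without the block, and no adjusted call changed. With a litter left out the counts were 413 to 864 genes (413 without litter 2 and 458 without litter 4) and 0 to 3 GBP genes (3 without litter 3 and 2 without litter 5). A Y-linked covariate and limma without trend each marked 0 GBP genes at that level. Gbp4 turned from -0.06 to 0.016 with the Y-linked covariate, and it ranged from -0.20 to 0.18 with a litter left out, the latter without litter 4. The log2 ratio of Gbp8 was -1.04 when its longer transcript was used alone, because that transcript is listed at 0 in the ErbB4myeKO library of litter 3, and that of Gbp3 was -0.003 with its highest transcript alone. Summing Gbp6, Gbp10 and Gm43302 was chosen after seeing the data. Of 9 neighbouring pairs of levels in ErbB4FF libraries, 7 held, 5 with the highest transcript alone, and 7 to 8 with a litter left out. Gbp11 could not be tested at a mean of 5 TPM or without litter 3. The read number per library is missing for every gene, and shared sequence limits Gbp6 and Gbp10 in particular.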

Other observations

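Genes whose log2 values moved most like the mean of the GBP genes within litters were named as a description, over 12 libraries centred within 6 litters, which amount to 6 independent differences. The mean of all 10 members follows the ErbB4myeKO library of litter 3, through which Gbp11 passed the filter, and the 5 genes most like it were Cox20 (r = 0.9935), Ncoa3 (0.973), Immp1l (0.970), Dnajc12 (0.967) and Thap3 (0.963). Leaving Gbp11 out of the mean, an alternative chosen after seeing the data, gave Tstd3 (0.992), Ada (0.986), Ust (0.9805), Fem1c (0.979) and Rfc5 (0.978). None of the first 5 is among the second 5.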
